A study of Apis mellifera with 9 samples.

Results

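The values come from the 3 RNA-seq libraries of a series of 9 on the ovary of worker honey bees (Apis mellifera), the libraries labelled as mRNA including lncRNA. The other libraries hold 3 circRNA and 3 miRNA preparations and were not used here. Each library stands for 1 pool of ovaries, 40 pairs taken from bees of the same colony. Per the submitters' design text, 5 colonies with related queens supplied brood that emerged at 34 °C and 80% humidity, and the marked young workers went back to their hive until day 4. All 3 pools share this strain, age and handling, no treatment or second genotype enters, and values are given in the order pool 1, pool 2 and pool 3 or as mean ± SD (n = 3). The pools are the only replicates, so a difference between them mixes colony, dissection and library preparation, which cannot be told apart. In such bulk tissue, fewer cells of a type and less RNA per cell cannot be told apart either.

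The ovary of a worker is a reduced organ. A queen's ovary holds many egg tubes (ovarioles) that run from stem cells through nurse cells and oocytes wrapped in follicle epithelium, whereas a worker's ovary keeps few ovarioles, and egg formation in it is usually held back while a queen is present. The organ also carries a muscle sheath and tracheae, and lies against fat body and gut in the abdomen. A whole-organ profile therefore mixes germ cells, somatic epithelium and tissue that clings to the preparation. Levels are in FPKM, fragments divided by exonic length and by the size of the library, so that genes of different length can be set side by side. A log2 level below means log2(FPKM + 1).

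The libraries held 31930244, 27684048 and 26602582 fragments, recovered from the step between FPKM values. At least 95.3 to 95.8% of them lay in the listed features, a lower bound because a recovered count can be short by a whole factor. Each of 10 germ line marker genes of the labelled tissue reached FPKM 1 in all 3 pools, and 2 of 3 follicle markers did so. Of all protein-coding genes 80% did so, which limits what these counts say about the tissue. The follicle marker that did not was chorion peroxidase (LOC412013), at 0.492, 0.316 and 0.148 FPKM. The germ line markers summed to 364, 578 and 595 FPKM. Of this sum CPEB1 (LOC411907) gave 110, 280 and 275, and the other 9 summed to 254, 298 and 320. Pool 1 stood apart in the summed markers of some other tissues. Summed FPKM was 1763, 980 and 910 for 19 muscle markers, of which 16 were highest in pool 1. It was 155, 12.8 and 16.4 for 13 gut markers, all highest in pool 1, of which 4 reached FPKM 1 in every pool and 2 were listed at 0 in a pool. It was 1299, 137 and 193 for 35 cuticle and trachea markers, of which 22 were highest in pool 1 and 14 reached FPKM 1 in every pool. Of that sum Apd-3 gave 918, 21.8 and 35.7, and the other 34 markers summed to 381, 116 and 157. Cpap3-d, the highest cuticle protein gene, is not among these markers and was lowest in pool 1, at 253, 587 and 398. The 17 head gland markers summed to 949, 427 and 301, and 12 of them were highest in pool 1. Of the head gland sum Hbg2, a glucosidase gene, gave 754, 305 and 149, and the other 16 markers summed to 195, 122 and 152. Fat body (1668, 1933 and 1866 for 9 genes), haemocyte (228, 236 and 229 for 4 genes) and neuron markers (70.8, 66.3 and 62.9 for 12 genes) were nearly level across pools, and the 3 venom gland markers summed to 47.7, 84.1 and 56.2. At least 1 pool was listed at 0 for 1 muscle, 3 cuticle and trachea, 5 head gland and 1 neuron marker.

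Most fragments came from protein-coding genes, while a single miRNA gene held 43.9% to 67.0% of summed FPKM. Of 13204 listed features, 10271 were protein-coding genes, 2673 lncRNAs, 170 miRNA genes, 61 tRNAs, 26 pseudogenes and 3 other RNAs. No feature was listed at 0 in all libraries. Protein-coding genes held at least 84.9%, 89.1% and 87.1% of all fragments but 31.7%, 53.7% and 38.6% of summed FPKM (41.3% ± 11.2). The miRNA genes held 67.5%, 44.8% and 60.3% of summed FPKM, and nearly all of it lay in Mir3759, an unplaced feature with 67.0%, 43.9% and 59.7%. This feature took 2707128, 785675 and 1520162 fragments, or 8.48%, 2.84% and 5.71% of each library. Pool 1 was highest and pool 2 lowest in that share. Division by a very short length lifts such a feature in FPKM, and without it protein-coding genes held 95.9% ± 0.302 of summed FPKM and lncRNAs 2.43% ± 0.293, the latter against 1.07% ± 0.414 with it.

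Expression reached most coding genes and a minority of lncRNAs. In every pool 8221 protein-coding genes (80%) had an FPKM of 1 or more, as had 974 lncRNAs (36.4%). Among miRNA genes 93 of 170 did so, among tRNAs 8 of 61 and among pseudogenes 13 of 26. By mean FPKM, 5347 protein-coding genes (52.1%) lay between 10 and 100, 635 between 100 and 1000 and 28 above 1000, while 454 lay at 0.1 or below. The 28 include the mitochondrial feature rna29235, whose label as protein-coding was not checked. Of the lncRNAs, 1115 lay between 0.1 and 1, 1096 between 1 and 10, 7 between 100 and 1000 and 1 above 1000. The median protein-coding gene stood at 14.6 ± 0.743 FPKM.

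The coding profile was spread over many genes. The 100 highest protein-coding genes held 29.0%, 24.97% and 26.5% of the FPKM of protein-coding genes, and the 1000 highest held 62.3%, 58.8% and 59.1%. It took 465, 609 and 585 genes to reach the midpoint of that sum. The highest gene alone held 4.98% in pool 1 against 2.40% and 2.43% in the others. Counted by fragments, the midpoint took 736, 637 and 722 genes, so pool 1 needed the fewest genes by FPKM and the most by fragments. That gene, CSP3 on LG5 (2176719 to 2178151 on the deposited table's coordinates), encodes a chemosensory protein, one of a family of small soluble binding proteins, and stood at 21704, 9030 and 9779 FPKM. Over all listed features, Mir3759 included, the 100 highest held 68.2% ± 9.49 of summed FPKM.

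The 20 highest protein-coding genes with a product name differed in how far the pools spread. Even genes included 60S ribosomal protein L13a (LOC551418), of the large ribosomal subunit, at 1196, 1161 and 1250 FPKM, and the gene listed as inositol-3-phosphate synthase (LOC551143), the first enzyme of inositol synthesis, at 1301, 1357 and 1369. The feature LOC725387, listed as a clkA-type serine/threonine kinase by best sequence match, stood at 1155, 1244 and 1159, and the match alone does not establish a kinase. Uneven genes included arylsulfatase B (LOC551758), a lysosomal enzyme that removes sulphate from glycosaminoglycans, at 224, 2084 and 1297 FPKM, lowest in pool 1. The uncharacterised LOC726268 was also lowest in pool 1, at 650, 3120 and 1953, and the uncharacterised LOC725074 was highest there, at 1905, 662 and 944.

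Functional classes were formed from product names, which in the deposited table are best-match descriptions. The 42 classes held 3835 protein-coding genes (37.3%), counting as a class the 1921 genes named uncharacterised. The median log2 level over all protein-coding genes was 3.97, and 23 classes lay above it and 19 below. A class value is a description of the members found by name, with no test against other genes.

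**Figure D1:**
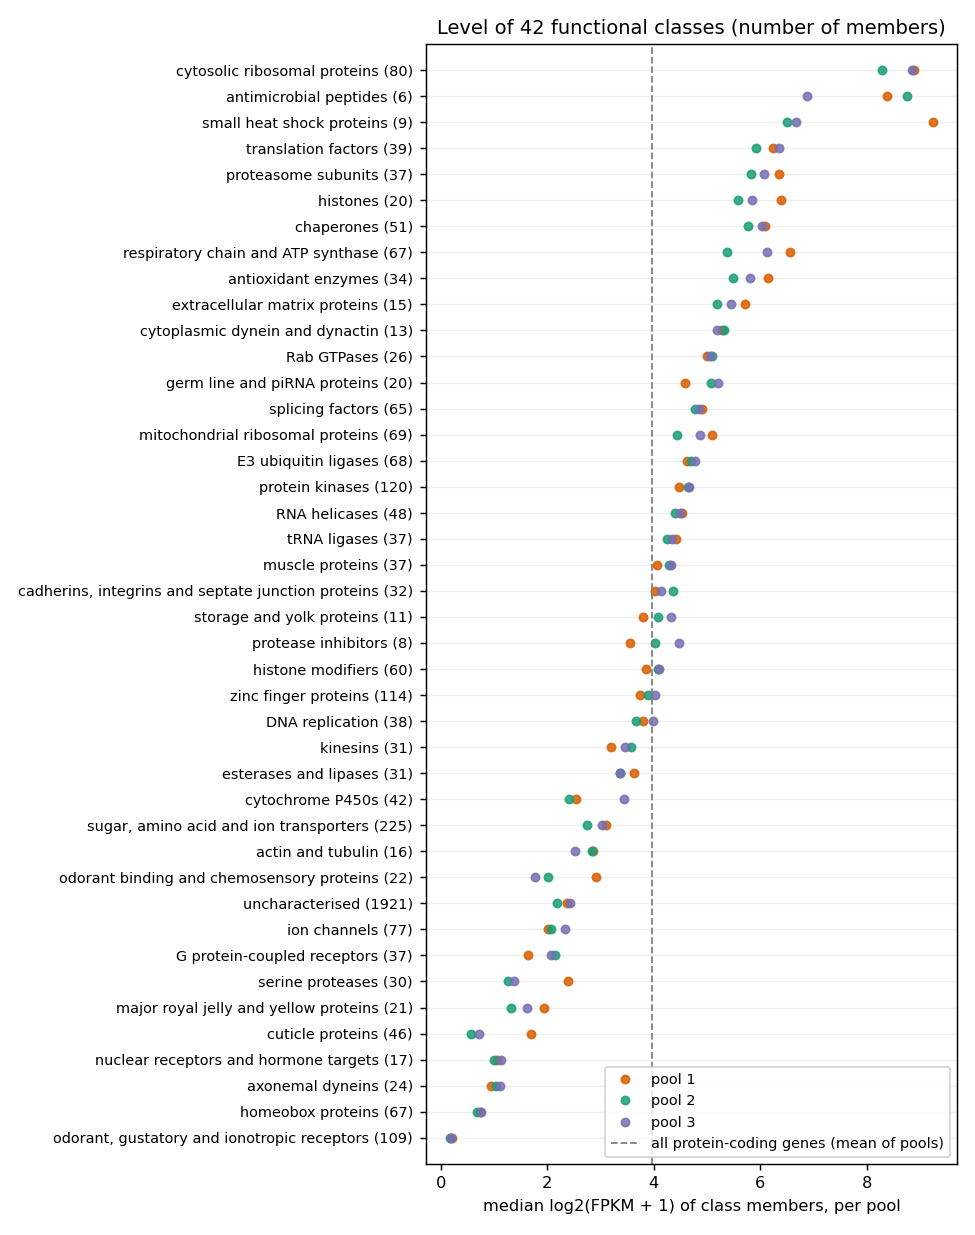
Median log2(FPKM + 1) of the members of each of 42 classes in pool 1, pool 2 and pool 3 (points), with the number of members in brackets and the median of all protein-coding genes, 3.97, as the dashed line. Cytosolic ribosomal proteins stand at the top (8.67) and odorant, gustatory and ionotropic receptors at the bottom (0.20), and small heat shock proteins show the widest gap between pools among the named classes.

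Cytosolic ribosomal proteins stood highest, followed by antimicrobial peptides, small heat shock proteins and, lower down, by translation factors, proteasome genes and histones. The 80 cytosolic ribosomal protein genes had a log2 level of 8.67 ± 0.34, with pool medians of 8.89, 8.29 and 8.86, and 79 of them reached FPKM 1 in all pools. They made up 9.70% ± 1.77 of the FPKM of protein-coding genes. Their highest member, RpS24 (LOC408799), stood at 2033, 1276 and 2207 FPKM, followed by RpS3a (LOC413296) at 1315, 1504 and 1425, and the lowest, a feature named RpL7a (LOC727506), was listed at 0 in 2 pools. Ribosomal protein genes have near-identical copies in many genomes, so single features are uncertain. The 39 translation factors stood at 6.29 ± 0.22, led by elongation factor 2 (LOC409167), which moves the ribosome along the mRNA, at 750, 788 and 847 FPKM, and by EF1a-F2, which delivers aminoacyl-tRNA, at 778, 587 and 662. The 37 proteasome genes, of the complex that degrades ubiquitin-tagged proteins, stood at 6.11 ± 0.27, with the core subunit beta type-4 (LOC411520) at 319, 214 and 283. The 51 chaperones stood at 6.03 ± 0.17, where Hsc70-4, the constitutive Hsp70 relative, led with 3085, 1441 and 1671 FPKM and Hsp90 stood at 158, 208 and 238. The 20 histone genes stood at 6.10 ± 0.41. Their leaders were the replacement histone H3.3 (LOC726692) at 153, 141 and 160 FPKM and an H4 gene (LOC725230) at 191, 62.7 and 158, lowest in pool 2. The 9 small heat shock proteins stood at 7.97 ± 1.54, and the SD reflects pool 1, with pool medians of 9.25, 6.51 and 6.68.

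Energy metabolism and defence classes also lay above the middle of all genes. The 67 genes of the respiratory chain and ATP synthase had a log2 level of 6.01 ± 0.59, led by the proton ring subunit ATP5G2 at 608, 271 and 381 FPKM and by cytochrome c oxidase subunit 4 (LOC412396) at 499, 198 and 359. The 34 antioxidant enzymes stood at 5.78 ± 0.33, led by Tpx-4, a peroxiredoxin, at 1040, 861 and 853. The 6 antimicrobial peptides stood at 8.10 ± 0.997, with apidaecin (Apid1) at 78.5, 276 and 34.2 and defensin 2 (Def2) lowest at 2.15, 1.05 and 1.61. The 15 extracellular matrix genes stood at 5.50 ± 0.26, headed by the collagen-binding protein SPARC (LOC408937) at 548, 228 and 264 and followed by the basement membrane linker nidogen-2 (LOC408797) at 128, 98.2 and 107 and collagen IV (LOC408552) at 126, 74.6 and 106. The germ line class lay above the middle too, by 1.01 on the log2 scale. All 20 germ line and piRNA proteins reached FPKM 1 in every pool, against 80% of all protein-coding genes. The class had a log2 level of 4.98 ± 0.32 and pool medians of 4.596, 5.07 and 5.21, lowest in pool 1. Its lowest member was an argonaute (LOC725111), of the small RNA binding family, at 2.41, 3.45 and 3.94 FPKM.

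The classes given next are mainly of RNA handling, ubiquitin transfer, signalling and traffic. They ranged from 0.17 below to 1.25 above the median of all genes on the log2 scale. The 31 kinesin genes are not among them and stood lower, at 3.42 ± 0.20, and G protein-coupled receptors are given with the low classes. The 65 splicing factors stood at 4.87 ± 0.07, led by the U2af small subunit (LOC413842), which recognises the 3′ splice site, at 132, 110 and 121 FPKM. The 68 E3 ubiquitin ligases stood at 4.73 ± 0.07, the 120 protein kinases at 4.54 ± 0.09, the 48 RNA helicases at 4.49 ± 0.07 and the 37 tRNA ligases, which charge tRNAs, at 4.36 ± 0.09. The helicase me31b (LOC552206), a translational repressor of stored mRNAs in Drosophila oocytes, stood at 65.1, 90.3 and 94.5. The 26 Rab GTPases, switches of vesicle traffic, stood at 5.05 ± 0.04, with Rab-1A (LOC102654987) at 262, 198 and 232 and the recycling endosome Rab-11A (LOC551603) at 211, 169 and 188. The 13 cytoplasmic dynein and dynactin genes, of the motor that moves cargo along microtubules, stood at 5.22 ± 0.08. The 38 DNA replication genes stood at 3.80 ± 0.17, the 114 zinc finger proteins at 3.96 ± 0.14 and the 60 histone modifiers at 3.96 ± 0.14, all within 0.2 of the median of all genes.

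Sensory, developmental and tissue-specific classes stood lowest. Of 109 odorant, gustatory and ionotropic receptors, 9 reached FPKM 1 in all pools, and their log2 level was 0.20 ± 0.02. The highest of them, odorant receptor 47a (LOC726459), stood at 21.3, 17.6 and 26.2 FPKM and odorant receptor 30a (LOC102656429) at 15.1, 15.7 and 16.5, with ratios of highest to lowest pool of 1.49 and 1.09. The 67 homeobox proteins, which pattern the body axis and organs, stood at 0.78 ± 0.04, yet caupolican (LOC412839) reached 47.6, 55.0 and 66.1 FPKM, abdominal-A (LOC410643), a Hox gene of the abdominal segments, 18.2, 27.7 and 25.99, and extradenticle (LOC408763), a Hox cofactor, 17.4, 20.2 and 19.7. The lowest homeobox gene was the mouthpart Hox gene proboscipedia (LOC410648), listed at 0 in 2 pools. The 24 axonemal dynein genes, of the motor of cilia and sperm tails, stood at 1.01 ± 0.08, and their highest member (LOC412436) reached 14.7, 22.9 and 18.4. The 46 cuticle proteins stood at 1.43 ± 0.61, the 30 serine proteases at 1.81 ± 0.63, the 37 G protein-coupled receptors at 1.84 ± 0.27 and the 77 ion channels at 2.21 ± 0.17. Within these low classes single genes were high, such as the receptor of methuselah type LOC100578046 at 196, 268 and 236 FPKM and the serine protease easter (LOC726256), named after a Drosophila protease of embryo patterning, at 339, 304 and 315. The uncharacterised genes stood at 2.32 ± 0.13, and 1224 of 1921 reached FPKM 1 in all pools. They held 10.02% ± 0.780 of the FPKM of protein-coding genes.

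Transport and detoxification classes spread over the whole range of levels. The 225 transporters of sugars, amino acids and ions had a log2 level of 2.95 ± 0.19, and the trehalose transporter Tret1 led with 214, 536 and 459 FPKM, lowest in pool 1. The excitatory amino acid transporter LOC412382 followed the same order, at 122, 256 and 201. The 42 cytochrome P450s stood at 3.10 ± 0.56. Their leader, Cyp4g11, is of the family that makes cuticular hydrocarbons in insects, and stood at 710, 1682 and 1879 FPKM. A P450 listed as 9e2 (LOC410492) stood at 554, 1002 and 773, and Cyp6as5 at 691, 1090 and 466. These 3 genes were each highest in a pool other than pool 1.

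Levels differed little between linkage groups, with 1 group set apart. Over the 16 linkage groups the median log2 level ran from 3.23 ± 0.14 on LG13 to 4.21 ± 0.05 on LG8, a range of 0.99. The groups next to the top were LG16 (4.18 ± 0.03), LG3 (4.16 ± 0.03) and LG11 (4.15 ± 0.09), of which only LG16 lay within the SD of LG8. LG13, with 327 protein-coding genes, was lowest in every pool (3.37, 3.09 and 3.22), and 27.2% of its genes had a mean FPKM below 1, against 8.77% on LG3. The groups next above it were LG9 (3.74 ± 0.06), LG14 (3.77 ± 0.05) and LG12 (3.82 ± 0.12). With uncharacterised genes left out, LG13 was still the lowest, at 3.70. The 878 unplaced genes stood at 3.12 ± 0.17. Odorant and gustatory receptors, a class of low level, were unevenly placed, with 44 of them on LG2 and 21 on LG12 but 2 on LG13. The highest gene of LG13 was the uncharacterised LOC408421 at 1093, 1703 and 1221 FPKM, that of LG7 was the actin-related Arp1 at 661, 736 and 500, and that of LG8 was RpL23a (LOC409637) at 812, 491 and 716.

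**Figure D2:**
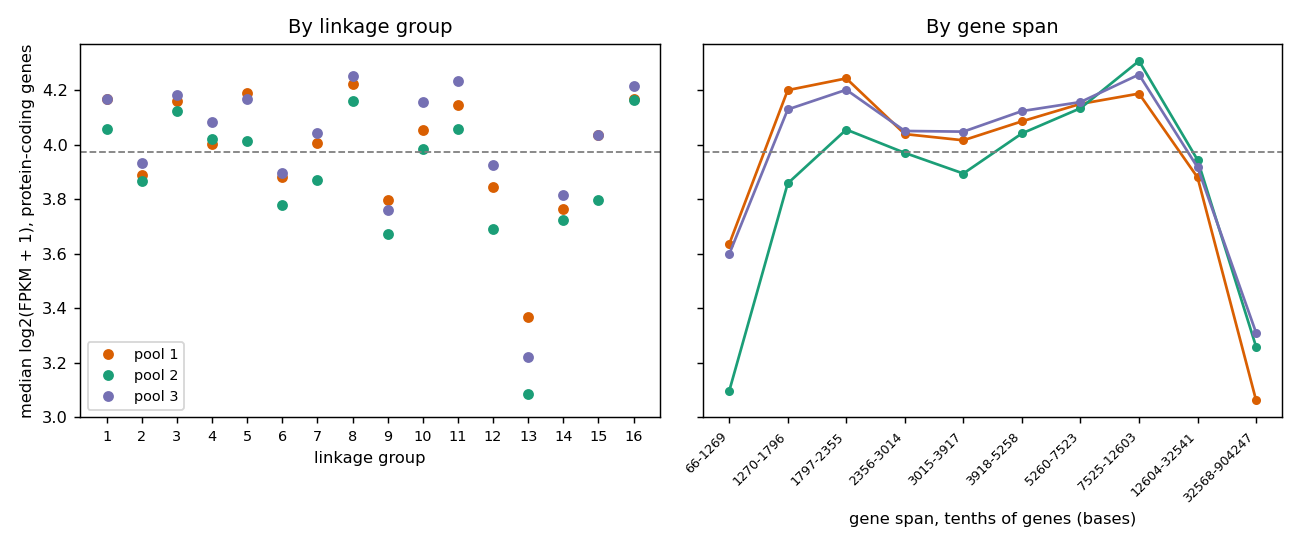
Median log2(FPKM + 1) of protein-coding genes by linkage group (left) and by genomic span in 10 groups of equal size (right), with a point for each pool and the median of all protein-coding genes, 3.97, dashed. LG13 lies below the other 15 linkage groups in each pool, and the groups of the shortest and the longest genes lie below the 8 groups between them.

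The relation of level to gene span was not a slope but an arch. In 4 groups of equal size by genomic span, from the shortest (66 to 2069 bases) to the longest (9528 to 904247 bases), the log2 level was 3.90 ± 0.22, 4.03 ± 0.07, 4.13 ± 0.03 and 3.72 ± 0.07. In 10 groups, the shortest stood at 3.44 ± 0.30, the eighth at 4.25 ± 0.06 and the longest at 3.21 ± 0.13. The longest minus the shortest of the 4 groups was -0.41, 0.07 and -0.21, with a mean of -0.19 ± 0.24, and the exact two-sided sign-flip permutation test gave p = 0.5, where 0.25 is the smallest that 3 pools allow. The sign differed between pools, and the difference was smaller than its spread. It was -0.07 without pool 1, -0.31 without pool 2 and, for genes above a mean FPKM of 0.1, -0.29 ± 0.25 with the same sign in all pools (exact p = 0.25). With exonic length in place of span the difference was 0.26 ± 0.36. Across genes the rank correlation of level and span was -0.08, 0.01 and -0.04 over 9816 genes that share each library, given as a description. The median share of the span that is exonic was 71.2% in the shortest of the 4 groups and 14.9% in the longest. From shortest to longest, their highest genes were CSP3, the predicted Bax inhibitor LOC552282, Hsc70-4 and the icarapin-like LOC503505, the last with a span of 40946 bases and 1647, 1975 and 1841 FPKM.

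Between pools, genes ranged from nearly even to strongly different levels. Of 7074 protein-coding genes with mean FPKM of 5 or more, 2215 (31.3%) lay within 1.2-fold across the pools, and a difference of 2-fold or more was found in 723 (10.2%). The median ratio of the highest to the lowest pool was 1.30. Of the 723, 459 were highest in pool 1 (6.49% of the genes compared), 139 in pool 2 and 125 in pool 3, and 465 were lowest in pool 2 (6.57%). Values just inside and just outside the threshold were 2.0007-fold (LOC413340) and 1.9999-fold (LOC552097). Over all biotypes 820 of 7472 genes (11%) differed 2-fold or more, of which 60.1% were highest in pool 1. This direction depended on scaling: with each library set to the same sum without Mir3759, 37.2% of 1230 such genes were highest in pool 1. Between pairs of pools, 633 protein-coding genes differed 2-fold or more for pools 1 and 2, 279 for pools 1 and 3 and 236 for pools 2 and 3, so pools 2 and 3 were the closest pair. Among lncRNAs, 65 of 317 (20.5%) differed 2-fold or more and 36 lay within 1.2-fold.

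Exonic length moved with the pool differences. In the shortest of 8 groups of genes (exonic length 72 to 856 bases) the median log2 ratio of pool 1 to pool 2 was 0.51, and it went down with each group to -0.30 in genes of 4954 bases or more. The ratio of pool 3 to pool 2 ran from 0.38 to -0.07 and that of pool 1 to pool 3 from 0.13 to -0.23. Pool 2 was the lowest pool for 73.7% of genes in the shortest group and for 13.3% in the longest. Of the shortest group 30.4% differed 2-fold or more, against 5.33% to 8.26% from the third group on. After the median deviation of 20 length bins was subtracted in each library, an adjustment chosen after the data were seen, 543 protein-coding genes (7.68%) differed 2-fold or more, 498 of them among the 723, and 299 were highest in pool 1. Library preparation was not tested as a source.

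**Figure D3:**
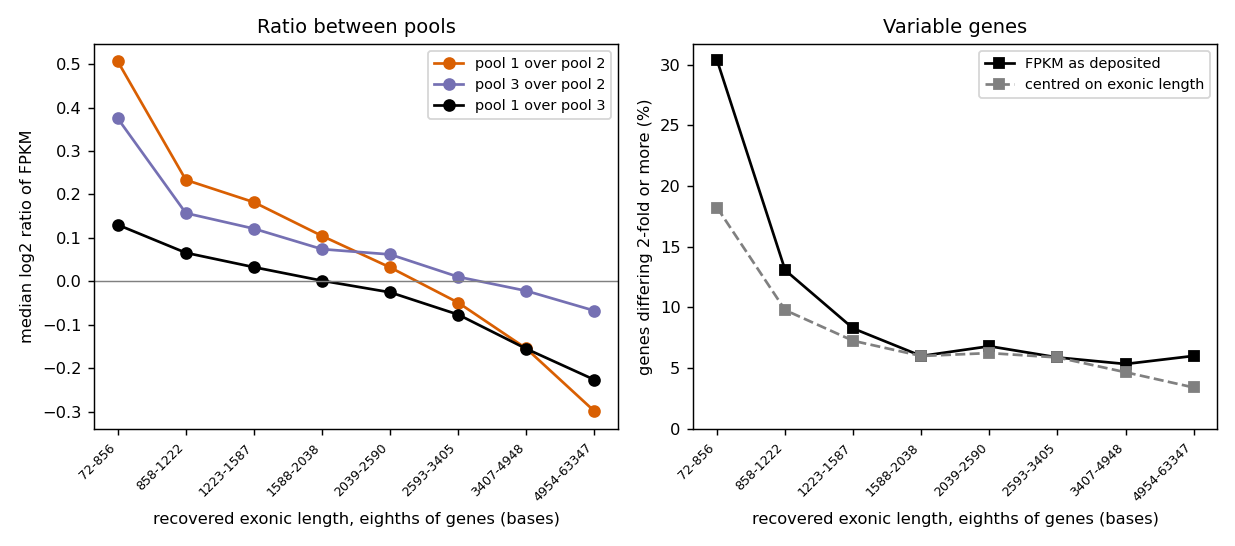
Left: median log2 ratio of FPKM between pairs of pools in 8 groups of protein-coding genes by recovered exonic length. Right: percent of genes differing 2-fold or more between pools, with FPKM as deposited and after centring on exonic length. The ratio of pool 1 to pool 2 goes from 0.51 in the shortest genes to -0.30 in the longest, and the shortest genes hold the most variable ones under both measures (30.4% and 18.2%).

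Some classes of short genes had fewer variable members after length centring. Of 78 cytosolic ribosomal protein genes at this level, 29 differed 2-fold or more (37.2%) against 10.2% of all protein-coding genes, 25 of them highest in pool 1 and 28 lowest in pool 2. Their median exonic length was 669.5 bases, against 1955.5 for all genes. After length centring 6 of 78 differed 2-fold or more (7.69%), against 7.68% of protein-coding genes of every length. Among genes of like length (72 to 856 exonic bases) the share was 30.4% as deposited and 18.2% after centring. RpS25 (LOC724369), of the small ribosomal subunit, stood at 1759, 640 and 1407 FPKM, with pool 2 apart. Of 57 respiratory chain and ATP synthase genes, 27 differed 2-fold or more, all of them highest in pool 1 and lowest in pool 2, and 1 lay within 1.2-fold. Their median exonic length was 815 bases, and after centring 13 differed (22.8%), all among the 27. For the 65 mitochondrial ribosomal protein genes the count was 13, and 9 after centring. For the 29 antioxidant enzymes it was 8, all highest in pool 1, and 4 after centring, with Sod1, which dismutates superoxide, at 933, 398 and 551 FPKM and thioredoxin-2 (LOC409451) at 619, 239 and 420. Other classes of short genes changed little on centring: odorant binding and chemosensory proteins (604 bases) went from 7 to 8 variable members, antimicrobial peptides (665.5) stayed at 4, cuticle proteins (847.5) went from 8 to 7 and histones (546.5) from 5 to 4.

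**Figure D4:**
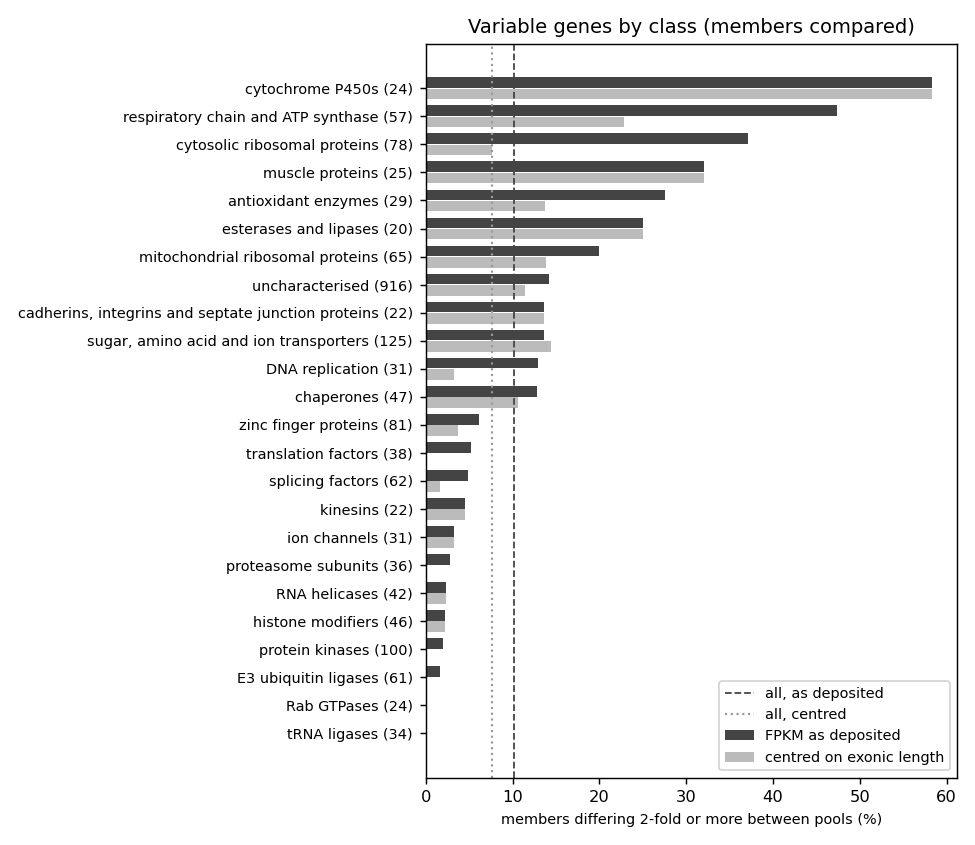
Percent of class members differing 2-fold or more between pools, for classes with 20 or more members at mean FPKM of 5 or more (number in brackets), with FPKM as deposited (dark bars) and centred on exonic length (light bars). The lines mark all protein-coding genes, 10.2% and 7.68%. Ribosomal and respiratory chain classes drop on centring, while cytochrome P450s and muscle proteins do not.

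Other classes differed between pools irrespective of length centring. For comparison, 723 of 7074 protein-coding genes (10.2%) differed 2-fold or more, and 459 of the 723 were highest in pool 1. After centring the share that differed was 7.68%. Of 24 cytochrome P450s, 14 differed 2-fold or more (58.3%) before centring and 14 after it, 13 of them the same genes, and the 14 before centring had no common direction, with 6 highest in pool 1, 4 in pool 2 and 4 in pool 3. Of 25 muscle proteins 8 differed, before and after centring, and all 8 were highest in pool 1. The median log2 level of all 37 muscle proteins was instead lowest in pool 1, at 4.06, 4.28 and 4.33. Tropomyosin-1 (LOC408414), which lines the thin filament, stood at 236, 94.3 and 105 FPKM, and myosin regulatory light chain 2 (LOC409881) at 271, 72.0 and 89.2. The summed muscle markers were 1763, 980 and 910, but 17 of the 19 belong to this class, and the other two summed to 94.0, 112 and 142, lowest in pool 1. Of 13 cuticle proteins 8 differed, or 7 after centring, and of the 8, 6 were highest in pool 1. Cpap3-d, a chitin-binding protein of the cuticle, went the other way at 253, 587 and 398, while CPR22 stood at 190, 9.39 and 20.7. The 35 cuticle and trachea markers all belong to this class but leave out Cpap3-d. They summed to 1299, 137 and 193, or 381, 116 and 157 without Apd-3. The part of attached tissue in these results was not tested. Of 12 odorant binding and chemosensory proteins 7 differed, 8 after centring. Obp3 stood at 141, 534 and 711 FPKM and CSP1 at 39.2, 39.2 and 117 and both were highest in pool 3, while the other 5 of the 7 were highest in pool 1. Of 14 serine proteases 6 differed, 5 of them highest in pool 1.

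Small heat shock and defence genes also differed between pools. Of all protein-coding genes compared, 10.2% differed 2-fold or more as deposited and 7.68% after centring. Of 9 small heat shock proteins 6 differed 2-fold or more, before and after centring, all highest in pool 1. Their product name, lethal(2)essential for life, is that of a Drosophila small heat shock relative. The leading pair, LOC724488 (2177, 122 and 124 FPKM) and LOC724367 (1688, 90.02 and 101), separated pool 1 from the others, whereas LOC412197 (709, 488 and 455) and LOC724449 (529, 349 and 314) stayed under 2-fold. Any near-identical copies in this family would make the split of fragments among its members uncertain, and their sequence likeness was not tested. Of 5 antimicrobial peptides 4 differed, 2 highest in pool 1 and 2 in pool 2. Of 8 storage and yolk proteins 2 differed, among them the hexamerin Hex70a, a larval storage protein, at 199.9, 80.0 and 70.1 FPKM.

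Classes of signalling, traffic and RNA handling held few variable members. None of 34 tRNA ligases and none of 24 Rab GTPases differed 2-fold or more, 2 of 100 protein kinases did, 1 of 61 E3 ubiquitin ligases and 1 of 42 RNA helicases, against 10.2% of all protein-coding genes. Within 1.2-fold lay 24 RNA helicases (57.1%), 29 E3 ubiquitin ligases (47.5%), 11 Rab GTPases (45.8%), 26 of 62 splicing factors (41.9%), 39 protein kinases (39%), 18 of 46 histone modifiers (39.1%) and 12 tRNA ligases (35.3%), against 31.3% of all protein-coding genes. These shares also go with length. For genes of 2039 to 4948 exonic bases, 5.33% to 6.80% differed 2-fold or more and 35.6% to 39.3% lay within 1.2-fold. Median exonic lengths were 3025.5 bases for protein kinases, 2497.5 for RNA helicases, 2311 for histone modifiers and 2285 for E3 ligases. Protein kinases and histone modifiers thus lay near genes of like length in the stable share. After centring, splicing factors (38.7%) and tRNA ligases (35.3%) lay near the 36.6% of all genes, and protein kinases (51%) and histone modifiers (52.2%) above it. The chaperone class lay near all genes in both counts, with 6 of 47 differing 2-fold or more (12.8%) and 17 within 1.2-fold (36.2%). The helicase bel (LOC408276) stood at 77.6, 78.8 and 74.3 FPKM and the ligase RNF126 (LOC550689) at 98.8, 96.2 and 105. An exception was the apoptosis-resistant E3 ligase LOC726045, at 127, 270 and 169. Of 19 germ line and piRNA proteins 5 lay within 1.2-fold and 1 differed 2-fold or more, the translational regulator CPEB1 (LOC411907) at 110, 280 and 275, lowest in pool 1.

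Among 1719 genes with mean FPKM of 50 or more, the most even were enzymes and regulators of several kinds. The deubiquitinase gene LOC409332, named ubiquitin carboxyl-terminal hydrolase 7, stood at 68.7, 67.9 and 68.3 FPKM on LG11, a ratio of 1.01 where the counting error of its least counted library is 0.912%. The Ral exchange factor LOC410322 stood at 56.5, 57.0 and 56.3, WD repeat protein 89 (LOC551536) at 54.7, 54.4 and 54.0, and the intracellular chloride channel exc-4 (LOC408481) at 136.9, 139 and 138. Proteasome subunit alpha type-7 (LOC410095) stood at 147, 149 and 147 and the germ line tudor protein LOC100576747 at 67.4, 67.3 and 68.6. Their evenness is that of FPKM as deposited. After length centring the ratios of these 6 genes were 1.24, 1.16, 1.09, 1.04, 1.22 and 1.23, so exc-4 was the most even of them.

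**Figure D5:**
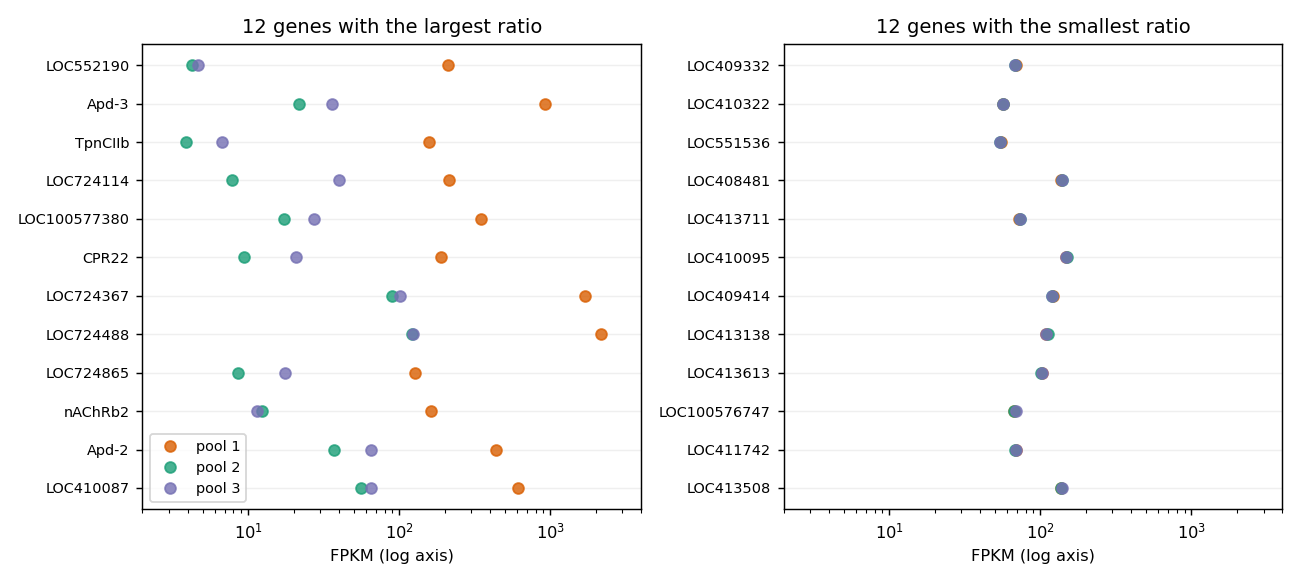
FPKM in each pool (log axis) of the 12 genes with the largest and the 12 with the smallest ratio of highest to lowest pool among genes with mean FPKM of 50 or more. All 12 variable genes have pool 1 as their highest, and the points of the 12 stable genes nearly coincide.

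The 12 most uneven genes of this level were all highest in pool 1, and they included 3 lethal(2)essential for life genes and 3 cuticle genes. LOC552190, listed as prisilkin-39 after a mollusc shell protein, stood at 210, 4.26 and 4.68 FPKM on LG12 (49.3-fold), with a counting error of 11.9% in its lowest library. The apidermin Apd-3, a cuticle protein, stood at 918, 21.8 and 35.7, and TpnCIIb, a troponin C of muscle, at 157, 3.90 and 6.67. The nicotinic acetylcholine receptor subunit nAChRb2 stood at 163, 12.4 and 11.5, although the summed neuron markers were level at 70.8, 66.3 and 62.9. The ABC transporter LOC724865 stood at 128, 8.59 and 17.4 and the uncharacterised LOC724114 at 213, 7.84 and 39.7. Both other pools lay far below pool 1 in these genes, and centred ratios ranged from 7.86 (Apd-2) to 40.4 (LOC552190). By construction these genes were chosen for this spread, so it has no test.

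Variable genes stood side by side at 6 places. Of 9393 placed protein-coding genes, 22 lay in 6 runs of 3 or more neighbours that all differed 2-fold or more. Over all 10271 protein-coding genes, placed or not, 723 had a mean FPKM of 5 or more and differed 2-fold or more. How many such runs a random placing of these genes would give was not tested. On LG4 from 1613694 to 1630086 the run held Apd-1 (50.5, 0.969 and 2.90 FPKM), Apd-2 (437, 37.2 and 65.3), Apd-3 and a gene listed as mucin-5AC (LOC727165; 56.1, 5.37 and 8.35), all highest in pool 1. On LG2 from 3342650 to 3354795 lay 4 lethal(2)essential for life genes, of which LOC724274 lies inside LOC410087, and on LG15 from 1471683 to 1488450 lay 4 odorant binding proteins, Obp17 (23.1, 4.66 and 4.81), Obp18 (45.7, 3.67 and 3.45), LOC107965629 (13.7, 1.21 and 1.34) and Obp21 (15.8, 2.86 and 5.95). All members of both runs were highest in pool 1. A second run on LG15, from 5904463 to 6024656, mixed directions, with amnionless (LOC100577099) at 131, 8.36 and 8.64 and mucin-6 (LOC100577777) at 25.9, 1.37 and 3.94 but a chymotrypsin inhibitor (LOC725114) at 23.1, 65.8 and 47.0. The run on LG6 from 3763512 to 4070149 held the long paramyosin (LOC409787) at 120.1, 71.4 and 44.0 with the short one (LOC102653609) inside it, so these features overlap, and a phosphodiesterase (LOC724389) that was highest in pool 2 at 62.8, 225 and 131 with an alpha glucosidase gene (AGLU2) inside it. The sources used here do not say whether counting used strand, so overlapping features may not be separate observations. The histone run on LG1, from 16634360 to 16639146, held an H1 gene (LOC725238) at 133, 188 and 69.1 and an H2A gene (LOC725308) at 95.7, 36.3 and 68.8, and 1 of its 3 genes still differed 2-fold or more after length centring.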

How the data were processed

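The authors deposited FPKM per gene for the 3 RNA-seq libraries, from rRNA-depleted RNA and a strand-marking kit per the labels' protocols. The submitters' processing notes name Bowtie, Bowtie2 2.0.6, TopHat2 2.0.9 and HTSeq 0.6.1. The build and the counting's strand rule are not given in the sources used here, so overlapping genes and near-identical copies are uncertain. FPKM values were whole multiples of 1 fragment for 13203 of 13204 features, which gave fragments and exonic length. The length is the smallest that fits and equals the span for 198 of 231 miRNA and tRNA features. Where the length is too short, the recovered fragments are short by the same factor. Medians used log2(FPKM + 1). Pool comparisons took genes with mean FPKM of 5 or more, and length centring used 20 bins and a pseudocount of 0.1. Named genes are class leaders and lowest members, the 20 highest with a product name, the 12 most and 12 least even at mean FPKM of 50 or more, the leaders of linkage groups and of 4 span groups, and runs. Members, classes and markers were chosen with earlier results of these data known. Python 3.11.15, numpy 2.4.6, pandas 2.3.3 and scipy 1.17.1 were used, and calculations were tested on simulated data. A result for 1 named gene is not reported here.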

Additional observations from a re-analysis of the deposited data

How the results depend on the processing

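Leaving out 1 pool gave 245 to 700 genes differing 2-fold or more (245 without pool 1, 338 without pool 2), 3131 to 4653 within 1.2-fold (4653 without pool 1, 4369 without pool 2) and 66.3% to 75.1% highest in pool 1. This share has no value without pool 1. Scaling each library to the same FPKM sum (TPM), Mir3759 included, shifted the median gene by -0.45, 0.48 and -0.01 on the log2 scale and gave 3585 genes differing 2-fold or more, 222 within 1.2-fold and 3.51% highest in pool 1. With that feature left out of the sum, the share was 37.2%. A mean FPKM of 1 or more gave 1716 genes differing 2-fold or more (46.9% highest in pool 1), and of 20 or more 413 (66.6%). Length centring gave 643 genes over all biotypes, with 49.8% highest in pool 1. The protein-coding share was 95.9% without Mir3759 and 91.1% of fragments in listed features, and the share of the 100 highest features was 26.7% without it. The range of linkage group medians was 0.69 for genes above FPKM 0.1, with LG8 highest and LG13 lowest in all settings run. Long minus short was 0.26 with exonic length, -0.29 for genes above FPKM 0.1, and -0.07 without pool 1 to -0.31 without pool 2. The classes near the median changed side: leaving out 1 pool moved histone modifiers over -0.071 to 0.14, zinc finger proteins over -0.057 to 0.042 and protease inhibitors over -0.11 to 0.30, and with genes above FPKM 0.1 protease inhibitors stood at -0.036 and storage and yolk proteins at -0.016 from the median. Over these settings 259 class levels stayed within the spread between pools and 29 moved beyond it, 223 class counts of variable genes stayed within 1.5 times and 155 did not, and 1749 means of named genes stayed within 1 SD and 21 did not. For the means of named genes, leaving out 1 pool could give no other outcome. The mean of the remaining pools always lies within 1 SD of the mean of all 3, so this count does not measure robustness there. The causes were not tested. No paired analysis was possible because the libraries form 1 group. A planned search of promoters for TATAAA was not run. With 3 pools and 1 library each, no gene has a replicate within a pool.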

Other observations

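Neighbouring protein-coding genes on the same linkage group are described here by orientation and spacing. Pairs that point away from each other with under 1000 bases between them (1143 pairs) had a median log2 level of 4.55, and in 90.2% of them both genes had a mean FPKM of 1 or more. Pairs that point at each other at under 1000 bases (956 pairs) stood at 4.40 and 85.1%. At 1000 bases or more the order was the other way, with 3.91 and 72.3% for pairs pointing away (1082 pairs) and 4.04 and 73.4% for pairs pointing at each other (1066 pairs). Pairs in the same direction stood at 4.00 and 76.1% at under 1000 bases (1311 pairs) and at 3.54 and 65.9% at 1000 bases or more (2439 pairs). The rank correlation of the levels of both genes was 0.11 in close divergent pairs and 0.26 in close same-direction pairs. These are descriptions over pairs that share genes and libraries, with no test.

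The mitochondrial genome had 11 features listed as protein-coding, 9 of them under 80 bases in span. That label was not checked for any of the 11, and spans of 66 to 72 bases make it doubtful for these 9. The longer ones also carry an rna number in place of a gene symbol, so their label is uncertain too. All 11 stay in the protein-coding counts and shares given above, where they held 1.73% of the FPKM of protein-coding genes. The 11 features held 0.957%, 0.269% and 1.32% of fragments in pools 1, 2 and 3. Of the longer ones, rna29235 (1371 bases) stood at 6852, 1916 and 9557 FPKM, lowest in pool 2, and rna29237 (786 bases) at 211, 188 and 235. A short feature, rna29222 (72 bases), stood at 1616, 221 and 584. The table gives no product name for them.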
